A study of Mus musculus with 6 samples.

Results

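The odorant receptor (OR) genes named Olfr164 to Olfr210 were examined in RNA-Seq libraries of the olfactory mucosa from 3 wild-type (WT) mice and 3 mice lacking both Rtp1 and Rtp2 (RTP1,2DKO). Members were taken by name, as Olfr followed by a whole number within that range, which gave 35 of the 24661 genes in the files. GENCODE M21 (GRCm38) places 34 of them on chromosome 16, the chromosome that also carries Rtp1 and Rtp2, and Olfr179 is described apart at the end. All 6 mice were C57BL/6 by their labels and 21 days old, and the WT mice were littermates of the mutants, matched for sex. The mutants carry no Rtp1 coding sequence, only a loxP site at its place, and a puromycin resistance gene (Pac) stands where Rtp2 was coded. Both changes were made in embryonic stem cells of a 129/B6 hybrid line, and the mice that carried them were then bred to C57BL/6. Chromosome 16 sequence near the mutated genes travels with them in such a cross, so an effect of the parental haplotype and an effect of the deletion cannot be told apart for the genes linked to them. All p-values rest on these 6 mice. Those of the fits set the difference between genotypes against the spread between mice of the same genotype.

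ORs are G protein-coupled receptors by which olfactory sensory neurons (OSNs) detect odorants. Each mature OSN expresses a single OR allele, and the receptor protein also supports the choice being kept. RTP1 and RTP2 are membrane proteins that help ORs leave the endoplasmic reticulum and reach the cell surface. The chromosome 16 receptors belong to Class II, the larger of the mammalian OR classes, and they lie in arrays of tandem copies, as OR genes commonly do. The transcript level of an OR in whole mucosa depends on how many OSNs express it and on how much RNA each of them holds. Fewer cells of a type and less RNA per cell cannot be told apart in such bulk samples.

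The members lie in 2 clusters, split where neighbouring members are over 1 Mb apart. The Rtp-proximal cluster, chr16:19284104-19629916 (GRCm38), holds the 8 genes Olfr164 to Olfr171 and ends 3.8 Mb from Rtp1 (chr16:23429133-23433960). The distal cluster, chr16:58759544-59363993, holds 26 members from Olfr172 to Olfr209 and starts 35.33 Mb from Rtp1. Of the 34 genes, 30 lie on the minus strand, while Olfr166, Olfr183, Olfr195 and Olfr203 lie on the plus strand. Olfr192 and Olfr197 are polymorphic pseudogenes in GENCODE M21 and are left out where only intact ORs are compared.

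Many members are near copies of each other, and 2 pairs are shown here because one pair moved apart in the mutants and the other did not. The lines give the first 300 bases of the longest open reading frame of each gene, from GENCODE M21 transcripts, 5′ to 3′ on the coding strand, with capitals at the bases that differ from, or are missing in, the other gene of the pair.
Olfr169: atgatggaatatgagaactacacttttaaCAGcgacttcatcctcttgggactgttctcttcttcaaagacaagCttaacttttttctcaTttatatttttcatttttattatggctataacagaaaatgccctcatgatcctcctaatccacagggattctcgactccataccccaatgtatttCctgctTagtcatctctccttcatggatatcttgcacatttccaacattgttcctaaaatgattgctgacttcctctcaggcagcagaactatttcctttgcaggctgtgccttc
Olfr170: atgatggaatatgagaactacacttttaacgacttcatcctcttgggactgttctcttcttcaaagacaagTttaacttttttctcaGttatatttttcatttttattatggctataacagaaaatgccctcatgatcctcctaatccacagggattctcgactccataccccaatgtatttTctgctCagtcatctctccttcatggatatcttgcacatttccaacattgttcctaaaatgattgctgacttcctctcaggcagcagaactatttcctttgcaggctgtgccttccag
Olfr194: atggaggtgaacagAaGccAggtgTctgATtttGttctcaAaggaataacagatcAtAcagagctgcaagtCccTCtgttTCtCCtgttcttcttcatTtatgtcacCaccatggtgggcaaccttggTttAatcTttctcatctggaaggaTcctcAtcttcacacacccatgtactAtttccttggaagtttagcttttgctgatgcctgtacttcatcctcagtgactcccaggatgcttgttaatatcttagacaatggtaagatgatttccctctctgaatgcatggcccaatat
Olfr203: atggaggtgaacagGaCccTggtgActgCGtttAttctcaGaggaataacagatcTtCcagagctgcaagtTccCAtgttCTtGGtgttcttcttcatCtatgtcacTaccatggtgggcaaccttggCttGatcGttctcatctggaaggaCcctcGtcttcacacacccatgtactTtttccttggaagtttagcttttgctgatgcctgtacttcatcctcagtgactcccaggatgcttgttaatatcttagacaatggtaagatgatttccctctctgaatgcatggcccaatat
The stretches lie at chr16:19566585-19566884 (minus strand) for Olfr169, chr16:19606367-19606666 (minus) for Olfr170, chr16:59119769-59120068 (minus) for Olfr194 and chr16:59303155-59303454 (plus) for Olfr203. Over the whole frames, Olfr169 and Olfr170 differed at 36 bases plus a gap of 3 bases, and Olfr194 and Olfr203 at 34 bases. In the second pair 25 of those differences fell in the stretch shown. Kallisto divides a read that matches several transcripts among them, so the values of such copies are uncertain to the extent that they share sequence.

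Rtp1 and Rtp2 were checked first. Rtp1 had 20521.9, 25300.9 and 13542.6 normalized counts in WT and 90.6, 85.5 and 108.8 in RTP1,2DKO (log2 fold change -7.70 ± 0.26 SE). Rtp2 had 8496.7, 9510.5 and 7156.6 normalized counts in WT and 58.0, 26.2 and 51.0 in RTP1,2DKO (-7.55 ± 0.26 SE). Both fell with an adjusted p of 7.2e-09 by edgeR's quasi-likelihood test, so the libraries followed their genotype labels. Total counts per mouse were 31125410 to 41636996, and no member had a mean under 10 counts. Of the 16 other genes of OR transport and choice, 3 fell and none rose (median log2 fold change 0.06). The 3 were Reep1 (a receptor accessory protein), Ric8b (which acts on the olfactory G protein) and Adcy3 (the adenylyl cyclase of odorant transduction). Ldb1, a cofactor of the OR-enhancer regulator Lhx2, had a log2 fold change of 0.04 (adjusted p = 0.97 by edgeR). Of the 12 genes of transduction in mature OSNs, 9 fell and none rose, with a median log2 fold change of -1.05 against 0.02 over all genes tested. They ranged from Stoml3, a stomatin of OSN cilia, at -2.0 (adjusted p = 4.3e-05 by edgeR) to Gnb1, a G protein β subunit, at -0.47 (adjusted p = 0.077). The 5 mature OSN markers all belong to that list, so they are no separate evidence. Of these 4 fell, and their summed normalized counts were 102113 to 104229 in WT and 43787 to 52524 in RTP1,2DKO. Of the 5 immature OSN markers 2 rose (Gap43 and Gng8), with sums of 25783 to 31598 in WT and 36126 to 38599 in RTP1,2DKO. The loss of mature OSN markers moved with the decreases below, and its part in them was not tested. None of the markers of progenitor, sustentacular, gland, horizontal basal, ciliated, vomeronasal, blood, macrophage or ensheathing cells was called, and their list medians lay between -0.22 and 0.76 (log2). The summed level of the 5 progenitor markers was 4271 to 5660 in WT and 6334 to 8592 in RTP1,2DKO, and that of the 3 vomeronasal markers 4107 to 4711 and 5185 to 5442, without overlap. Of the vomeronasal markers, Trpc2 (log2 0.46) and Gnai2 (0.29) had higher means in the mutants, and Vmn2r1 did not (-0.09, groups overlapping).

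The first question was how the chromosome 16 receptors changed when every gene entered the fit. Of the 35 members, 16 passed an adjusted p of 0.05 by edgeR's quasi-likelihood test with Benjamini-Hochberg adjustment over 22152 genes, which is 45.7% of them. The same test called 3.61% of all genes and 42.7% of the 1078 intact ORs tested. The members' calls were 11 down and 5 up, or 31.4% and 14.3%, where intact ORs gave 38.3% down and 4.36% up, and all genes 3.15% and 0.46%. Their median log2 fold change was -0.06, against -1.08 for intact ORs. The 1078 intact ORs include the intact members, and the other 1045 gave 38.5% down, 4.02% up and a median of -1.1. On chromosome 16 alone the calls were 10 down and 5 up of 34 genes. Levels of the WT and RTP1,2DKO mice did not overlap for 14 members that were lower in the mutants and 7 that were higher, or 40% and 20%. Among all genes these shares were 9.24% and 7.17%, and among intact ORs 52.1% and 12%. Calls on 7 of the 16 members held whichever mouse was omitted, namely on Olfr167, Olfr179, Olfr181, Olfr183, Olfr190 and Olfr195 as lower and on Olfr194 as higher. Without RTP1,2DKO mouse 1 only 1 member was called up, and without WT mouse 3 or RTP1,2DKO mouse 3 there were 3.

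**Figure D1:**
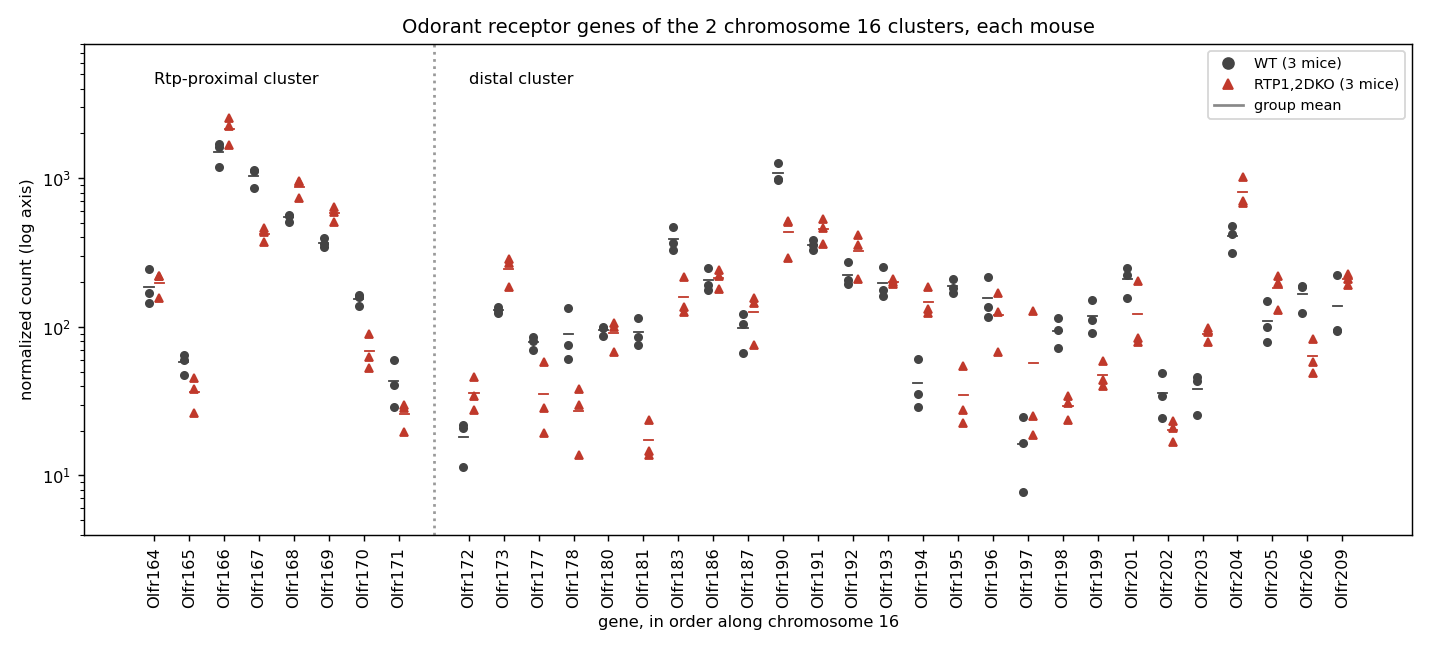
Normalized counts (log axis) of the 34 chromosome 16 members in each WT mouse (grey circles) and each RTP1,2DKO mouse (red triangles), in gene order, with group means as short lines; the dotted line parts the clusters. Levels ran from 7.7 counts (Olfr197 in a WT mouse) to 2558.5 (Olfr166 in a mutant), and genes lower and higher in the mutants stood next to each other.

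In the Rtp-proximal cluster, 2 genes fell, 2 rose and 4 did not pass the test, with a median log2 fold change of -0.28. Olfr167 had 1126.5, 1137.3 and 860.0 normalized counts in WT and 460.5, 371.5 and 431.2 in RTP1,2DKO, and the groups did not overlap (log2 fold change -1.31 ± 0.15 SE, edgeR adjusted p = 0.00034). It is one of 6 members of which at least 95% of the 31-base words of the frame occur in no other gene (99.9%). Its neighbour Olfr168, 7.01 kb away, had 511.0, 567.7 and 557.9 counts in WT and 939.9, 736.9 and 958.4 in the mutants. That difference went the other way, 1.61-fold higher (log2 0.69 ± 0.14 SE, edgeR adjusted p = 0.016), and every mutant mouse was above every WT mouse. Olfr166, the near copy of Olfr168 and the member with the most counts, had 1703.7, 1619.1 and 1195.2 counts in WT and 2558.5, 1676.1 and 2232.3 in RTP1,2DKO. Its groups overlapped, and it did not pass the test (log2 0.52 ± 0.17 SE, edgeR adjusted p = 0.17). Olfr169 had 395.1, 358.7 and 341.8 counts in WT and 638.6, 504.9 and 595.8 in the mutants, again without overlap (log2 0.67 ± 0.15 SE, edgeR adjusted p = 0.026). Olfr170, 33.9 kb from it and 96.2% identical over the frame, had 163.4, 138.3 and 159.9 in WT and 89.6, 62.8 and 52.9 in RTP1,2DKO. This gene was lower in each mutant mouse (log2 -1.17 ± 0.26 SE, edgeR adjusted p = 0.024). At the far ends of the cluster, Olfr164 (log2 0.09 ± 0.24 SE), Olfr165 (-0.66 ± 0.35) and Olfr171 (-0.73 ± 0.42) did not pass the test. The count of called genes in this cluster rested on single mice, with 2 calls without WT mouse 3, 2 without RTP1,2DKO mouse 1 and 1 without RTP1,2DKO mouse 3. Olfr167 was called in each of these fits, while Olfr168, Olfr169 and Olfr170 reached adjusted p-values of up to 0.084, 0.12 and 0.1 with a mouse left out (edgeR).

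In the distal cluster, 8 genes fell, 3 rose and 15 did not pass the test, with a median log2 fold change of -0.02. The largest called increase and the largest called decrease were those of genes 26.0 kb apart. Olfr194 had 29.0, 35.3 and 60.6 normalized counts in WT and 184.4, 123.8 and 131.3 in RTP1,2DKO, a 3.52-fold increase (log2 1.82 ± 0.32 SE, edgeR adjusted p = 0.0055). Olfr195, on the opposite strand, had 183.1, 208.9 and 168.7 in WT and 54.8, 22.7 and 27.4 in the mutants, or 0.19 of the WT level (log2 -2.43 ± 0.33 SE, edgeR adjusted p = 0.0008). Neither gene's groups overlapped. Olfr203, the near copy of Olfr194 shown above, had 43.4, 45.8 and 25.4 in WT and 98.0, 92.4 and 79.4 in the mutants. It was higher in all 3 mutants but did not pass the threshold (log2 1.23 ± 0.32 SE, edgeR adjusted p = 0.06), and it passed with the replicate number as a block (adjusted p = 0.036).

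Further genes fell elsewhere in the distal cluster. Olfr181 fell from 75.5, 114.5 and 84.9 to 13.7, 23.5 and 14.7 normalized counts (log2 -2.39 ± 0.37 SE, edgeR adjusted p = 0.002). Its gene, of 4049 bases, lies wholly within that of Olfr180 on the same strand in GENCODE M21. Olfr180 had 86.9, 98.3 and 99.2 counts in WT and 99.1, 68.0 and 105.8 in RTP1,2DKO (log2 -0.06 ± 0.27 SE). Olfr180 thus did not pass the test, and how kallisto divided reads of the shared part was not tested. Olfr178, 22.2 kb from Olfr180, had 61.0, 133.6 and 75.0 counts in WT and 13.7, 29.7 and 38.2 in the mutants (log2 -1.72 ± 0.43 SE, edgeR adjusted p = 0.045). That call was lost without WT mouse 2 (adjusted p = 0.21), RTP1,2DKO mouse 1 (0.13) or RTP1,2DKO mouse 2 (0.085). Olfr198 had 114.8, 95.4 and 71.7 counts in WT and 30.6, 23.5 and 34.3 in the mutants, with no overlap (log2 -1.67 ± 0.33 SE, edgeR adjusted p = 0.01; 0.052 without WT mouse 1). Olfr183, Olfr199 and Olfr206 fell to 0.41, 0.40 and 0.38 of the WT mean. With a mouse left out, Olfr183 kept its call, while Olfr199 and Olfr206 reached adjusted p-values of up to 0.13 and 0.054 (edgeR).

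Of the abundant distal receptors, Olfr190 and Olfr204 changed in opposite directions. Olfr190 had 1267.2, 976.0 and 991.2 normalized counts in WT and 504.7, 292.1 and 516.4 in RTP1,2DKO (log2 -1.30 ± 0.20 SE, edgeR adjusted p = 0.0023). Olfr204 had 423.1, 479.9 and 314.2 in WT and 1025.3, 702.0 and 683.0 in the mutants (log2 0.98 ± 0.20 SE, edgeR adjusted p = 0.012). Each gene's groups were separate, and the Olfr204 call was lost without RTP1,2DKO mouse 1 (adjusted p = 0.056). Olfr192 is an annotated polymorphic pseudogene whose frame of 756 bases is 97.0% identical to the longer one of Olfr190 (924 bases), taken over the shorter frame. Olfr192 had 271.0, 206.1 and 194.0 counts in WT and 412.0, 211.0 and 352.8 in RTP1,2DKO. Unlike Olfr190, its mean was higher in the mutants, with overlapping groups (log2 0.54 ± 0.24 SE, edgeR adjusted p = 0.4). Olfr205, beside Olfr204, had 78.6, 148.8 and 99.2 counts in WT and 197.0, 220.6 and 130.3 in the mutants (log2 0.74 ± 0.28 SE, edgeR adjusted p = 0.27). Its groups overlapped. Olfr209, at the end of the cluster, had 94.1, 224.2 and 95.9 counts in WT and 208.6, 190.1 and 228.3 in the mutants. WT mouse 2 stood among the mutants there, and without it the log2 fold change went from 0.59 (edgeR adjusted p = 0.51) to 1.14 (0.018).

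At the start of the distal cluster, Olfr172 and Olfr173 are near copies that were both higher in the mutants. Olfr173 had 130.3, 135.5 and 123.5 normalized counts in WT and 270.8, 284.3 and 185.2 in RTP1,2DKO (log2 0.93 ± 0.21 SE, edgeR adjusted p = 0.028). Olfr172 had 11.4, 21.9 and 20.9 in WT and 27.4, 46.2 and 34.3 in the mutants (log2 0.99 ± 0.46 SE, edgeR adjusted p = 0.44). Neither overlapped between groups, although only Olfr173 passed the test, and its call was lost in 5 of the 6 fits with a mouse left out (adjusted p up to 0.14). In the middle of the cluster lay 4 more receptors, none of which passed the test. Olfr186 had 177.9, 247.1 and 191.8 counts in WT and 240.3, 220.6 and 178.4 in the mutants. Olfr187 had 66.2, 105.0 and 121.3 in WT and 145.4, 156.1 and 75.5 in the mutants. For both genes the ranges of the groups crossed. Olfr191 had 326.9, 381.6 and 355.0 in WT and 532.1, 361.9 and 463.5 in RTP1,2DKO. Olfr193, its near copy, had 254.5, 176.5 and 162.1 in WT and 210.7, 201.4 and 193.0 in the mutants. The log2 fold changes of these 4 genes were 0.05, 0.37, 0.35 and 0.03, each far from the threshold (smallest edgeR adjusted p = 0.47, for Olfr191).

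Log2 fold changes of opposite sign stood side by side among the members of both clusters. Neighbours here are adjacent members, and 6 other Olfr genes lie within the span of the distal cluster. Of the 7 neighbour pairs in the Rtp-proximal cluster 5 had log2 fold changes of opposite sign, and of the 25 in the distal cluster 10 did. Of the 34 genes 17 were lower and 17 higher, so unlike signs are common in any pairing. Whether neighbours differed in sign more often than other pairs was not tested. Both genes were called in 3 pairs of each cluster. Those called in opposite directions were Olfr167 and Olfr168, Olfr169 and Olfr170, and Olfr194 and Olfr195, and the last pair differed most, by 4.24 on the log2 scale. The 2 clusters therefore held both kinds of change, with 25.0% of the proximal and 30.8% of the distal genes down and 25.0% and 11.5% up. Whether the clusters differed was not tested. Outside the named range, 3 more intact ORs of chromosome 16 were Olfr161, Olfr15 and Olfr19, with log2 fold changes of 0.94 (edgeR adjusted p = 0.48), 0.42 (0.35) and -2.44 (0.0015).

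**Figure D2:**
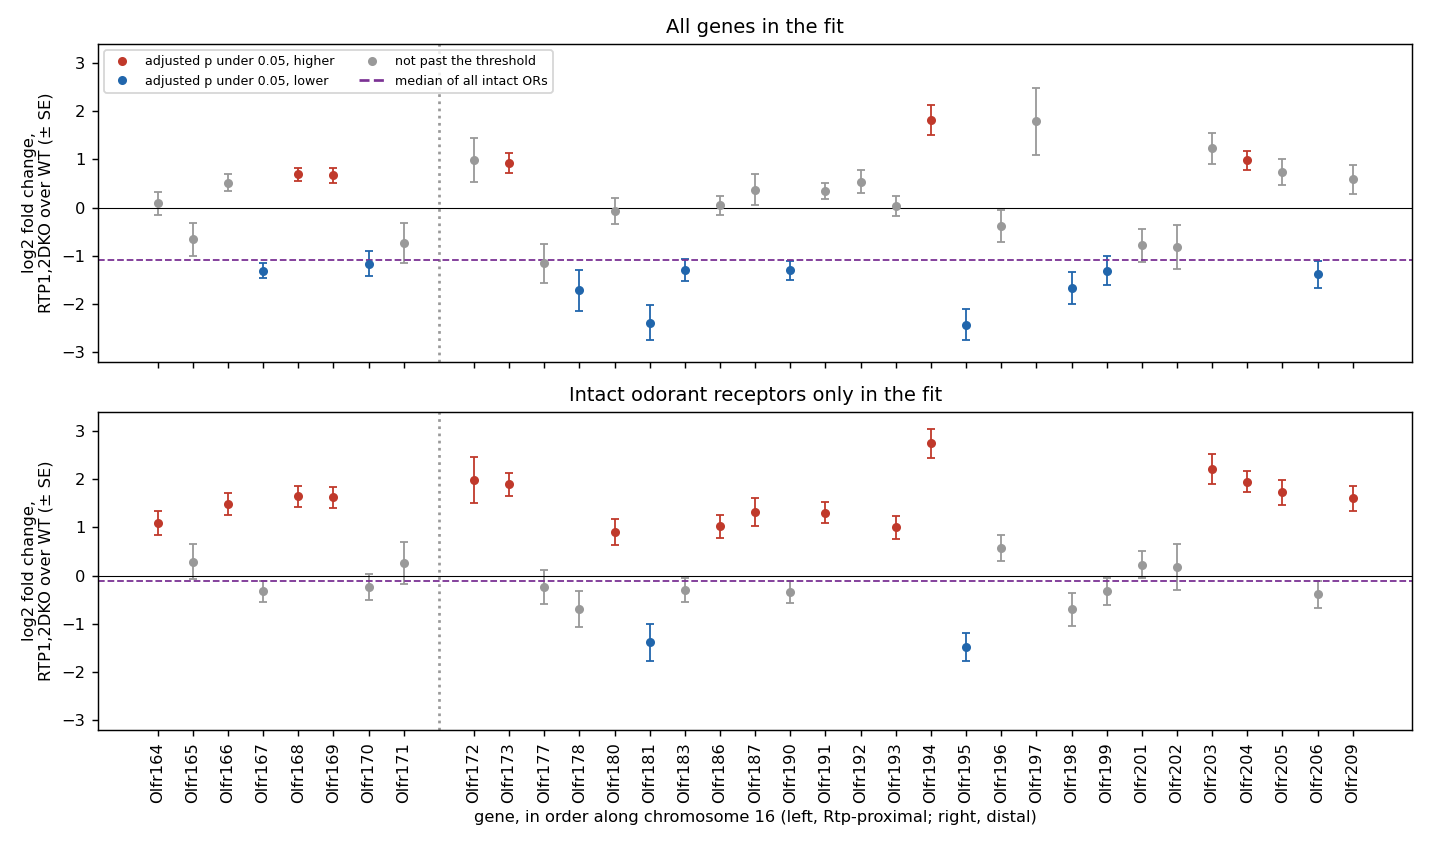
Log2 fold change (RTP1,2DKO over WT, ± SE) of the chromosome 16 members in gene order, with all genes in the fit (top) and with intact ORs alone (bottom); the dashed line is the median of all intact ORs, at -1.08 and -0.11. In the top panel both clusters hold blue points (called lower) and red points (called higher), in the bottom panel the Rtp-proximal cluster holds red points but no blue ones, and most members lay above the dashed line in both panels.

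The second question was how these receptors stood among the ORs, since OR transcripts as a whole were less abundant in the mutants. The fit was repeated on intact ORs alone, with size factors and adjustment over them, which moved the median intact OR from -1.08 to -0.11 (log2). In this fit 18 of 33 members were called by edgeR's quasi-likelihood test, or 54.5%, against 55% of the 1078 intact ORs. The direction of the calls was uneven, with 16 members overrepresented (48.5%) and 2 underrepresented (6.06%), where intact ORs gave 29.1% and 25.9%. Their median log2 fold change was 0.58, against -0.11 for intact ORs. The 1045 intact ORs that are not members gave 28.5% over and 26.5% under, with a median of -0.13. Scaling each mouse to its total intact OR count instead gave 11 members over and 12 under, with 16.4% and 47.9% of intact ORs. The total is weighted by a few abundant receptors, of which Olfr907 alone had 62079.7 to 102021.3 normalized counts. The split between over and under thus depended on the scaling. The medians were -0.20 for the members and -0.89 for intact ORs under the second scaling, which moves every receptor by about the same amount and so leaves the gap between the medians as it was.

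The 16 overrepresented receptors were Olfr164, Olfr166, Olfr168 and Olfr169 of the Rtp-proximal cluster and Olfr172, Olfr173, Olfr180, Olfr186, Olfr187, Olfr191, Olfr193, Olfr194, Olfr203, Olfr204, Olfr205 and Olfr209 of the distal one. All of them stayed called whichever mouse was omitted. In all of them every mutant mouse lay above every WT mouse on this scale, which being called up in this fit favours. The share of all intact ORs that did so is not given here. Olfr194 led with a 6.73-fold difference (log2 2.75 ± 0.30 SE, edgeR adjusted p = 4.6e-10), followed by Olfr203 (log2 2.21 ± 0.31, adjusted p = 3.9e-08), Olfr172 (1.98 ± 0.48, 0.00042) and Olfr204 (1.95 ± 0.22, 7.4e-10). The smallest was that of Olfr180 (0.90 ± 0.27, adjusted p = 0.0044). Olfr164 belongs to the receptors with few shared words (95.4% of its own), and had OR-scaled counts of 118.6, 152.9 and 113.2 in WT and 192.2, 319.7 and 315.8 in RTP1,2DKO (log2 1.10 ± 0.25, edgeR adjusted p = 0.00015). Olfr186, with 98.1% of its words unshared, had 125.2, 153.5 and 150.3 in WT and 294.1, 321.0 and 257.7 in the mutants (1.02 ± 0.23, adjusted p = 0.0002). Under the scaling to the total OR count Olfr164, Olfr180, Olfr186, Olfr187 and Olfr193 were no longer called. The underrepresented receptors were Olfr181 (log2 -1.39 ± 0.39, edgeR adjusted p = 0.0019) and Olfr195 (-1.48 ± 0.29, 2.6e-05), and both stayed called with any mouse left out. Olfr190 joined them with the replicate number as a block (log2 -0.37, edgeR adjusted p = 0.043; 0.19 without it).

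The sum over the 35 members differed between genotypes by less than the spread between mice. It was 9307.7, 9506.7 and 7804.9 normalized counts in WT and 9868.3, 7731.8 and 8617.7 in RTP1,2DKO (8873.1 ± 930.4 against 8739.2 ± 1073.4, SD, n = 3 each, exact permutation p = 0.9, two-sided). No comparison of 3 against 3 mice can reach a p below 0.1. All intact ORs together summed to 329326.6 ± 24587.1 in WT and 289564.3 ± 24348.1 in the mutants (SD, n = 3 each, exact permutation p = 0.1). The 33 intact members, without Olfr192 and Olfr197, took 2.81, 2.60 and 2.45% of intact OR counts in WT mice and 3.12, 2.83 and 2.70% in the mutants. The unpaired groups overlapped (2.62 ± 0.18 against 2.88 ± 0.21%, SD, n = 3 each, exact permutation p = 0.2). Between mice with the same replicate number the share was higher in the mutant in all 3 pairs, by 0.31, 0.23 and 0.25 percentage points (exact paired permutation p = 0.25, the smallest that 3 pairs allow). Without Olfr907 in the denominator the shares were 3.34 ± 0.14 and 4.01 ± 0.09% (SD, n = 3 each, exact permutation p = 0.1), and without Olfr166 among the members they were 2.16 ± 0.11 and 2.14 ± 0.16% (exact permutation p = 0.9). The Rtp-proximal genes summed to 3898.9 ± 473.2 in WT and 4364.2 ± 664.1 in RTP1,2DKO (SD, n = 3 each, exact permutation p = 0.4). The distal genes summed to 4764.7 ± 490.2 and 4295.6 ± 496.6 (SD, n = 3 each, exact permutation p = 0.2). In the pairs, the distal sum was lower in all 3 mutants, with differences of -79.4, -1087.9 and -239.8 counts (exact paired permutation p = 0.25), and the proximal sum was higher in 2 of 3. Among the counts of all 35 members, Olfr167 took 11.8% in WT and 4.82% in the mutants and Olfr190 took 12.1% and 4.96%. Olfr204 took 4.59% and 9.16%, Olfr168 6.12% and 10%, and Olfr166, which did not pass the test with all genes, 17.0% and 24.5%.

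**Figure D3:**
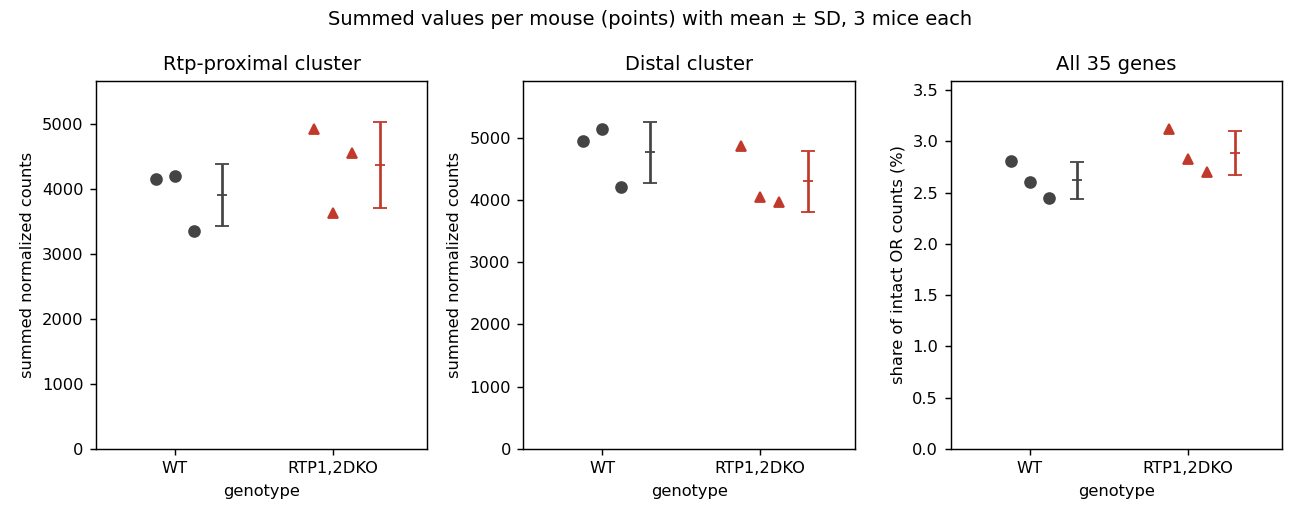
Summed normalized counts of each cluster (left and middle) in each mouse, with mean ± SD of 3 mice per genotype. The right panel gives the share of intact OR counts taken by the 33 intact members. Its title counts all 35 genes, but Olfr192 and Olfr197 were left out of the share. The WT and RTP1,2DKO mice overlapped in all 3 panels.

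Levels per length were compared as FPKM, which divides a gene's estimated counts by effective length and library total. The median member had 3.94 FPKM in WT, against 2.70 for intact ORs, and 3.81 in RTP1,2DKO, against 1.12. Rtp-proximal genes had a median of 9.31 FPKM in WT and 3.53 in the mutants, and distal genes 3.83 in both groups. With 8 genes the proximal median turns on the few in the middle of the order, and over the same genes the median log2 fold change was -0.28 and the summed counts were 3898.9 in WT and 4364.2 in the mutants. The highest WT levels were those of Olfr209 (28.4 ± 16.1 FPKM, SD, n = 3), Olfr166 (26.8 ± 5.68), Olfr190 (23.7 ± 4.44), Olfr204 (16.7 ± 2.78) and Olfr192 (15.2 ± 2.80). Each neighbouring pair in that order differed by less than 1 SD of its more variable gene, except Olfr190 and Olfr204. The value of Olfr209 rested on short transcript models, since those under 700 bases gave 77.1, 77.4 and 86.9% of its FPKM but 44.2, 43.0 and 60.3% of its counts in the WT mice. The lowest was Olfr172 at 0.677 ± 0.254 FPKM.

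The sequences bear on how far near copies can be told apart. Over 34 members with an open reading frame of 639 to 975 bases, the median share of 31-base words found in no other GENCODE M21 gene was 55.9%, and the lowest was 34.2%, for Olfr194 and Olfr203. At least 95% of words were unshared for 6 members, Olfr164, Olfr165, Olfr167, Olfr183, Olfr186 and Olfr202. Of these, Olfr167 and Olfr183 were called down with all genes in the fit and none was called up. The 5 receptors called up there had shares of 34.2 to 53.2%. The authors' transcripts extend beyond the reading frames, so that reads from the added parts may separate copies that the frames do not. Identity was taken over the length of the shorter frame of a pair, so unmatched bases of a longer frame do not lower it. Median identity of the frames was 63.9% within the Rtp-proximal cluster, 67.5% within the distal cluster and 59.5% between them. Of 561 pairs 48 reached 80% identity and 11 reached 94%, and these 11 involved 19 genes. In 8 of the 11 the log2 fold changes had the same sign, as in Olfr172 and Olfr173 (96.9% identity, 0.99 and 0.93) and Olfr194 and Olfr203 (96.3%, 1.82 and 1.23). The other 3 had opposite signs, and were Olfr190 and Olfr192 (97.0%, -1.30 and 0.54), Olfr169 and Olfr170 (96.2%, 0.67 and -1.17) and Olfr169 and Olfr171 (96.4%, 0.67 and -0.73). The closest pair, Olfr170 and Olfr171 (97.5%), had -1.17 and -0.73. Genes of near-identical coding sequence thus had log2 fold changes of both like and unlike sign, with differences of 0.06 to 1.84. Only for Olfr169 and Olfr170 did both genes pass the test with all genes in the fit. Each other pair holds at least 1 gene that was not called, whose sign is uncertain.

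**Figure D4:**
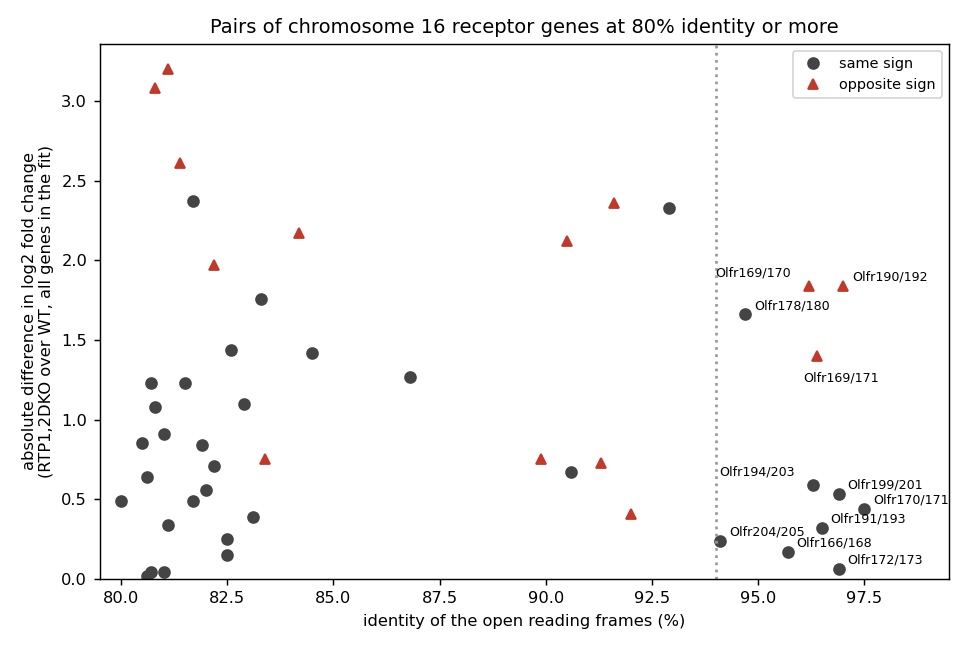
Identity of the open reading frames (% of the shorter frame) against the absolute difference in log2 fold change (all genes in the fit) for the 48 pairs of chromosome 16 members at 80% identity or more, with grey circles for pairs of the same sign and red triangles for pairs of opposite sign. The 11 pairs right of the dotted line, at 94%, are named, and 3 of them have opposite signs.

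Of the remaining members, Olfr197 and Olfr201 were picked after their values were seen, as was Olfr175-ps1, which is no member. In each of them RTP1,2DKO mouse 2 stood above the other mutants. That mouse was also the highest mutant for other members, such as Olfr183 and Olfr206. Olfr197, annotated as a polymorphic pseudogene, had 16.6, 24.8 and 7.7 normalized counts in WT and 25.3, 127.3 and 18.6 in the mutants. Olfr201 had 250.3, 223.3 and 156.6 in WT and 79.0, 202.3 and 84.3 in the mutants. Olfr175-ps1 had 125.2, 119.3 and 94.8 in WT and 16.9, 194.5 and 28.4 in the mutants. Without that mouse the log2 fold change of Olfr197 went from 1.79 to 0.41, and that of Olfr201 from -0.78 to -1.36 (edgeR adjusted p = 0.014). Olfr177, Olfr196 and Olfr202 had log2 fold changes of -1.16, -0.38 and -0.82 and did not pass the test. Olfr177 passed it only without RTP1,2DKO mouse 1 (log2 -1.72, edgeR adjusted p = 0.034).

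Olfr179 has no place on chromosome 16 in GENCODE M21, and RefSeq lists its name as an older one of Olfr322 on chromosome 11. It had 204.8, 181.3 and 242.6 normalized counts in WT and 83.2, 54.1 and 100.9 in RTP1,2DKO, with no overlap (log2 -1.40 ± 0.26 SE, edgeR adjusted p = 0.0071). Among intact ORs its log2 fold change was -0.45 ± 0.27 SE (edgeR adjusted p = 0.16).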

How the data were processed

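RNA from whole olfactory mucosa was sequenced from stranded libraries. Per the methods and the file headers, the authors assigned reads with kallisto to mouse transcripts in which OR genes had extended annotations, and deposited an estimated count, a length and a TPM value per transcript. The kallisto version is not given in the sources used here, and the build named in the submitters' processing notes is mm10. The deposited TPM values were not used. Estimated counts were summed per gene and rounded, and FPKM was computed from them, the effective lengths and the total. Every gene counted at least once (1 count) in any mouse entered edgeR 4.0.16's quasi-likelihood test in R 4.3.3, with DESeq median-of-ratios size factors and Benjamini-Hochberg adjustment at 0.05, over all genes and over intact ORs (Olfr genes not marked as pseudogenes in name or in GENCODE M21). Standard errors were the log2 fold change over the root of F. Single values per mouse were compared by two-sided exact permutation tests. Both fits were tested on simulated data. Methods describe sex-matched littermates. Deviations of mice with the same replicate number correlated at 0.14, 0.177 and 0.101 across 18156 genes, and those of mice with unlike numbers at -0.217 to 0.09. The numbers were taken to pair the mice, although the gap between 0.101 and 0.09 is small. Neither the methods nor the sample titles say that equal numbers mark littermates, so that pairing is an assumption. Open reading frames came from GENCODE M21 transcripts. Members and lists were chosen with earlier results of these data known. By rule, values per mouse were given for members called up in either fit, the 5 largest called decreases and the 5 highest WT FPKM; a few more were added. Alternatives were TMM, a low-count filter, DESeq2 1.42.0, the block, total-OR scaling, OR pseudogenes, other sums and each mouse left out; leaving out Olfr179 and paired tests of the sums were added after the data were seen.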

Additional observations from a re-analysis of the deposited data

How the results depend on the processing

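With TMM, a low-count filter, DESeq2 or the replicate block, the members called with all genes in the fit numbered 16, 15, 17 and 17 (16 as reported), and no member changed sign. Olfr178 was lost with the filter (adjusted p = 0.067) and Olfr203 was gained with DESeq2 (0.021) and the block (0.036). The block added Olfr190 among intact ORs and changed no other call; paired exact tests gave p = 1.0 for the members' sum (-1.51%) and 0.25 for their share (10.1%). Leaving out Olfr179 gave 15 calls. When OR pseudogenes were included, 18 of 35 members were over and 2 under. Scaling to the total OR count raised the underrepresented members from 2 to 12. It turned the log2 fold changes of Olfr165 (-0.49), Olfr171 (-0.51), Olfr196 (-0.20), Olfr201 (-0.54) and Olfr202 (-0.61), since in these data it lowered every member by about the same amount. Without Olfr166 the difference in the members' share of OR counts went from 10.1% to -0.905%. With each mouse left out, calls with all genes numbered 11 to 13 (8 to 10 down, 1 to 4 up), 1 to 3 in the Rtp-proximal and 8 to 10 in the distal cluster, and among intact ORs 18 to 20 (2 to 3 under, 16 to 17 over). Rtp1 ranged from -7.91 to -7.49 and Rtp2 from -7.77 to -7.27 (log2). The summed counts differed by -7.87 to 4.17% (-1.51% with all mice) and the share by 5.54 to 14.2%. Log2 fold changes crossed 0 for Olfr164 (-0.06 to 0.34), Olfr180 (-0.19 to 0.11), Olfr186 (-0.04 to 0.20) and Olfr193 (-0.09 to 0.25) with all genes, and among intact ORs for Olfr177 (-0.67 to 0.05) and Olfr201 (-0.39 to 0.52). The causes were not tested. With 3 mice per group and low counts, changes of the rarer receptors, such as Olfr172 and Olfr202, have standard errors near 0.45 (log2), which limits what could be called.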
